A study of Mus musculus with 12 samples.

Results

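Transcripts of the peroxisome were compared between livers of wild-type mice and of mice lacking A1cf. A list of 42 genes of peroxisomal import and metabolism was examined, made up of 12 peroxins and 30 enzymes and membrane transporters. A member had to reach a mean of 5 counts over the libraries, which 41 genes did, of 46882 gene names in the table. Hao2, a hydroxy acid oxidase gene, did not, with 0 to 5 counts per library. All 41 were abundant enough to be among the 13706 genes tested. The groups were 6 wild-type mice (WT) and 6 A1cf -/- mice (KO), all C57BL/6, aged 6 to 8 weeks, with 1 liver library each. The series' design text calls the libraries biological replicates; the labels name no treatment and do not say how the A1cf allele was disrupted or in which cells. The A1cf gene encodes an RNA-binding cofactor of the APOBEC1 cytidine deaminase.

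Peroxisomes make no protein of their own and take in folded enzymes from the cytosol. Most matrix enzymes carry the PTS1 signal, a short tail at the C terminus related to serine, lysine and leucine, which the receptor PEX5 binds. A few carry the PTS2 signal near the N terminus, which PEX7 binds before it enters with the long form of PEX5. The loaded receptor docks on PEX13 and PEX14, is ubiquitinated by a complex that includes PEX2 and PEX10, and is pulled back to the cytosol by an ATPase that holds PEX6 and is anchored by PEX26. In hepatocytes the imported enzymes shorten very long and branched fatty acids and the side chain of bile acid precursors. They also begin ether lipid synthesis and break down hydrogen peroxide.

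The coding ends below show what the receptors read. Sequences are from GENCODE M21 transcripts on mm10, the principal isoform of each gene, 5′ to 3′. For PTS1 the last 30 bases of the coding sequence are given with the stop codon, and the 9 bases in capitals encode the last 3 residues. The pattern searched was serine, alanine, cysteine or proline, then lysine, arginine, histidine, serine or asparagine, then leucine, methionine or isoleucine. The genes were chosen to show abundant enzymes and the variety of codons.
Cat: atggctgcgaagggaaaaGCTAACCTGtaa
Ehhadh: ttggcaggaccccatagcAGCAAACTGtga
Acox2: ctgatgcaaagctggaaaCCCAAGCTGtga
Scp2: cagcttcagccgggcaaaGCTAAGCTGtga
Decr2: gagtttgaatccttctctGCTAAGCTGtag
Ephx2: cagaacccatcagtgaccTCCAAGATTtag
Pipox: ttctctacgctgagcaaaGCCCACCTTtga

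Among the 29 enzymes and transporters, 19 ended in residues of the PTS1 pattern, as did 1.52% of 21599 protein-coding genes, and none of the 12 peroxins did. Scp2 and Decr2 used the same 3 codons. The PTS2 pattern of 9 residues (arginine or lysine followed by a leucine-like residue or glutamine, restricted residues at the fifth and the sixth place, and histidine or glutamine before leucine, alanine or phenylalanine at the end), searched for in the first 40, was found in 3 of the 29, against 0.116% of all genes. A signal reaching beyond the first 40 residues would not have been found, so PEX7 may have other cargo among the members. All 3 matches are shown, and capitals mark the first 2 and last 2 codons of the pattern.
Acaa1a: CGGCTGcaggtagtgctgggcCACCTG
Acaa1b: CGGCTGcaggtagtgctgggtCACCTG
Phyh: CGGCTGcaggtccttctgggaCACCTC
The other 7 (Abcd2, Abcd3, Abcd4, Acox3, Agps, Agxt and Far1) held neither pattern in the stretch searched. The tail of Acox3 (serine, glutamine, leucine) missed the PTS1 pattern only at the middle residue. That of Agxt (asparagine, lysine, leucine) missed it only at the first residue. PEX5 may therefore also have other cargo among these members. These matches are descriptions of letters, and import was not measured.

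Library totals lay between 22129092 and 51082317 counts. A1cf was at 47.9 to 53.8 CPM (counts scaled to a library of 1000000) in WT and at 8.20 to 12.6 CPM in KO, so the libraries followed their labels. Albumin was at 56994 to 81680 CPM in every library. Genes of the acute phase response, such as the serum amyloid gene Saa1, stood apart in 5 libraries of both genotypes: Saa1 was at 1840 to 17489 CPM in WT 590, WT 601, KO 588, KO 591 and KO 602, while the other 7 held 20.8 to 83.8 CPM. Of 11 Kupffer cell and macrophage markers, 0 passed edgeR's test and 10 had an unadjusted p under 0.05; the estimates were above 0 for all 11 (median log2 change 0.69), and their summed level was 134 to 222 CPM in WT and 138 to 491 CPM in KO. Of 11 stellate cell and fibroblast markers 3 rose (median 0.50; summed level 161 to 291 CPM in WT and 280 to 376 CPM in KO), as did 1 of 10 sinusoidal endothelial markers (median 0.20; 151 to 298 and 240 to 289 CPM). The 8 hepatocyte markers had a median of −0.12 and 0 passed, with 2 at an unadjusted p under 0.05 (summed level 90218 to 113467 CPM in WT and 83188 to 104213 CPM in KO). Over all 13706 tested genes, 523 passed edgeR's test and 2903 had an unadjusted p under 0.05. In whole liver, fewer cells of a type and less RNA per cell cannot be told apart.

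The transcripts of both import receptors were lower in KO. Pex5 fell to 54.9% and Pex7 to 62.5% of the WT mean, while the docking partners Pex13 and Pex14 were at 87.8% and 83.2% and did not pass the test. Pex5 (chromosome 6, 124396816 to 124415067, minus strand, mm10) ranged from 126 to 155 CPM in WT, with a median of 140 CPM. In KO its lowest library was at 71.3, its median at 75.1 and its highest at 90.1 CPM. Every KO library lay well below every WT library. The log2 fold change of Pex5 was −0.87 and its standard error 0.08 (edgeR's quasi-likelihood test, p adjusted over all tested genes = 1.1e-04), and an exact two-sided permutation test on its log2 CPM gave p = 0.0022, the smallest value that 924 assignments allow.

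Pex7 (chromosome 10, 19859929 to 19907689, minus strand) lay between 52.6 and 75.9 CPM in WT, median 63.0 CPM, and between 36.5 and 45.5 CPM in KO, median 39.0 CPM. The genotypes did not overlap for this receptor either, and the nearest libraries were WT 776 at 52.6 CPM and KO 588 at 45.5 CPM. Its log2 change was −0.68 ± 0.09 (SE; edgeR's quasi-likelihood test, adjusted p = 0.0011; exact permutation p = 0.0022). No other gene of the GENCODE M21 annotation shared exonic bases with Pex5 or Pex7. Both falls passed in all 22 other settings tried, with Pex5 between −0.91 and −0.81 and Pex7 between −0.75 and −0.62. The Kupffer cell marker mean was 3.12 to 3.84 log2 CPM in WT. KO 584 (3.24) and KO 780 (3.75) lay inside that range, with 77.9 and 71.3 CPM of Pex5 and 36.5 and 37.8 CPM of Pex7. In KO 574, 588, 591 and 602 the marker mean was 4.09 to 4.93 log2 CPM. These libraries had 71.5 to 90.1 CPM of Pex5 and 37.6 to 45.5 CPM of Pex7. The stellate cell marker mean was higher in every KO library (3.73 to 4.20 log2 CPM) than in every WT library (2.73 to 3.70). The part of either cell type in these falls was not tested.

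Pex14, the membrane protein on which loaded receptors dock, was at 35.6, 44.0 and 46.8 CPM (lowest, median and highest) in WT and at 33.4, 34.6 and 38.1 CPM in KO. The groups overlapped, with WT 590 inside the KO range. Its log2 change was −0.27 ± 0.08 (SE) and did not pass (edgeR's quasi-likelihood test, adjusted p = 0.074); DESeq2 called it (adjusted p = 0.025), as did edgeR without WT 590 (adjusted p = 0.026). An antisense gene, Gm17029, overlaps 28.3% of its exonic bases, and the counting command set no strand option. Pex13, its docking partner, was at 53.4 to 72.1 CPM in WT and 53.0 to 56.9 CPM in KO, a log2 change of −0.19 ± 0.08 (SE; edgeR's quasi-likelihood test, adjusted p = 0.20).

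**Figure D1:**
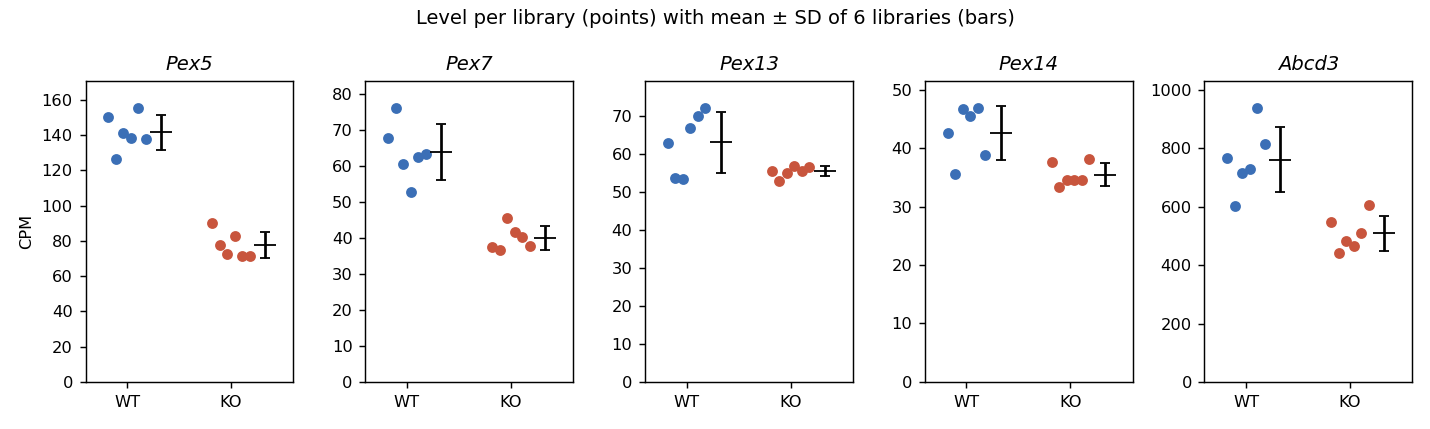
Levels of the import receptors Pex5 and Pex7, the docking genes Pex13 and Pex14 and the transporter Abcd3 in CPM (vertical axes from 0), with 1 point per library and bars for the mean ± SD of 6 libraries. The KO points of Pex5 (71.3 to 90.1 CPM) and Pex7 (36.5 to 45.5 CPM) lie below all WT points, while those of Pex13 and Pex14 overlap with WT.

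Ratios of counts within a library, which no scaling between libraries touches, set receptors beside docking genes. They reuse the counts of Pex5 and Pex7 called above, so they are no independent support for those falls. Over the receptor and docking genes and the transporters below, 9 pairs were compared. The log2 ratio of Pex5 to Pex14 was 1.73 ± 0.11 (SD, n = 6) in WT and 1.13 ± 0.14 in KO, without overlap (difference −0.61; exact permutation p = 0.0022, adjusted over the pairs 0.0097). Against Pex13 the ratio of Pex5 was also lower in every KO library (difference −0.69; the same exact p and adjusted p). Pex7 was lower relative to Pex14 (difference −0.41; exact permutation p = 0.017, adjusted 0.031) and to Pex13 (−0.49; exact permutation p = 0.0043, adjusted 0.0097), with overlap of the genotypes in both ratios. The 2 receptors were not shown to differ from each other: Pex5 over Pex7 was 1.16 ± 0.23 (SD, n = 6) in WT and 0.96 ± 0.21 in KO (exact permutation p = 0.15, adjusted 0.19). For Pex13 over Pex14 the difference was 0.08 (exact permutation p = 0.47, adjusted 0.47).

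**Figure D2:**
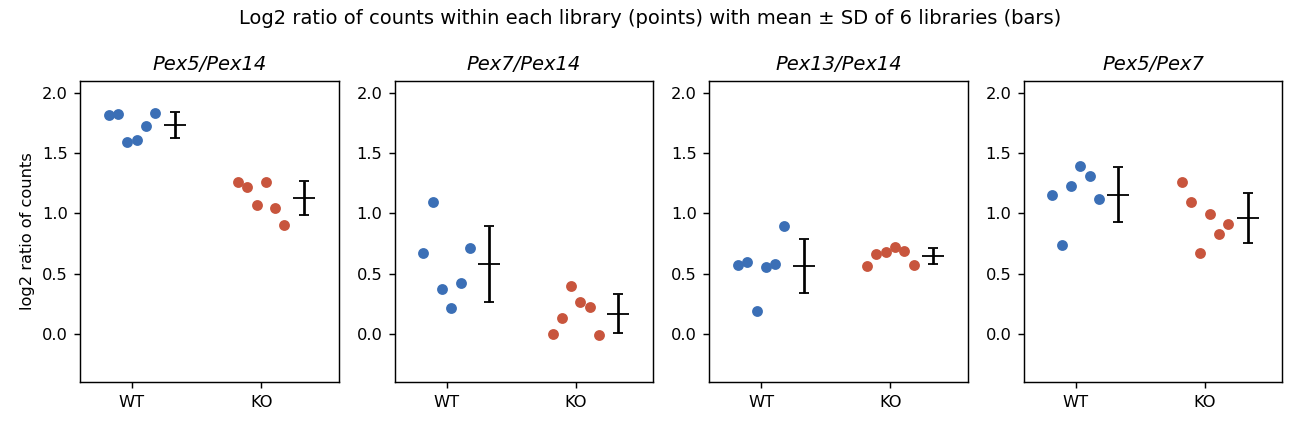
Log2 ratio of counts of 2 genes within each library (vertical axes, same range in each panel), with 1 point per library and bars for the mean ± SD of 6 libraries. The ratio of Pex5 to Pex14 lies at 1.59 to 1.83 in WT and 0.90 to 1.26 in KO, and that of Pex13 to Pex14 overlaps.

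The remaining peroxins did not pass the test. Among the genes that act on receptors after import, Pex2 (log2 −0.05) and Pex10 (−0.04), both ubiquitin ligase subunits, the ATPase gene Pex6 (−0.15) and its membrane anchor Pex26 (0.21) had 0 calls and 0 unadjusted p-values under 0.05 in edgeR's test, and DESeq2 called none. Of the membrane assembly factors, Pex19, the chaperone of peroxisomal membrane proteins, was at 174 ± 10.9 CPM (SD, n = 6) in WT and 174 ± 14.9 CPM in KO, a log2 change of 0.00 with a standard error of 0.08. Its membrane receptor Pex3 stood at −0.14 and Pex16, which recruits Pex3, at −0.14. Pex11a, a division factor inducible by PPARα ligands, stood at −0.34 with a standard error of 0.22. Over all 12 peroxins 2 fell, 0 rose, 10 lay below 0 and the median log2 change was −0.15. An unadjusted p under 0.05 in edgeR's test was found for 4 of the 12, Pex5 and Pex7 included. Over all 13706 tested genes 2.09% fell, 1.72% rose, 6605 lay below 0 and 2903 had an unadjusted p under 0.05.

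Abcd3 (chromosome 3, 121758774 to 121815302, minus strand), which encodes the abundant fatty acyl transporter PMP70 of the peroxisomal membrane, was the third member to fall. Its lowest, median and highest levels were 602, 748 and 937 CPM in WT and 441, 497 and 606 CPM in KO. The groups overlapped only in WT 590 and KO 780. The log2 change was −0.58 ± 0.12 (SE; edgeR's quasi-likelihood test, adjusted p = 0.015; exact permutation p = 0.0043). It kept its call in each fit with 1 library left out, but not in the libraries numbered 573 to 602 (−0.50, adjusted p = 0.13), without the 5 libraries high in acute phase genes (−0.61, adjusted p = 0.071), or without the 2 deepest, WT 573 and KO 588 (−0.56, adjusted p = 0.074).

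The related transporter Abcd2 had a log2 change of −0.89, larger in size but with an SE of 0.40 (edgeR's quasi-likelihood test, adjusted p = 0.23). It was at 14.5 to 35.6 CPM in WT and 5.09 to 29.5 CPM in KO, so its KO libraries covered a wide range. Abcd4, whose product is now mostly placed in lysosomes, stood at −0.16 ± 0.13 (SE). The ratio of Abcd3 to Abcd4 was lower in KO by 0.40 (exact permutation p = 0.0043, adjusted 0.0097), and no such difference was shown for Abcd2 over Abcd3 (−0.51, exact permutation p = 0.33, adjusted 0.38) or Abcd2 over Abcd4 (−0.91, exact permutation p = 0.14, adjusted 0.19).

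The enzymes with either import pattern had no call. Of the 19 genes with PTS1 letters 0 passed edgeR's test, 15 lay below 0 and the median log2 change was −0.11. An unadjusted p under 0.05 was found for 4 of them (Hsd17b4, Acox2, Pipox and Crot), and for 2903 of all 13706 tested genes. Of the 3 with PTS2 letters 0 passed, 0 had an unadjusted p under 0.05, 3 lay below 0 and the median was −0.16. DESeq2 called none of the 22. Over all 13706 tested genes 3.82% passed edgeR's test and 6605 lay below 0. At that share few calls fall in sets of this size, so their absence does not show that these transcripts were unchanged. Members with neither pattern had a median of −0.13, with Abcd3 as the call.

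Among the genes of peroxisomal β-oxidation, 8 of 9 lay below 0, with a median of −0.17, against 6605 of all 13706 tested genes and 0.01. In edgeR's test they had 0 calls and 2 unadjusted p-values under 0.05, against 523 calls and 2903 such p-values over all tested genes. DESeq2 called none of them. Hsd17b4, the bifunctional enzyme of very long and branched chains, ranged over 420, 635 and 706 CPM (lowest, median and highest) in WT and over 355, 448 and 545 CPM in KO. The groups overlapped, and its log2 change was −0.41 ± 0.15 (SE; edgeR's quasi-likelihood test, adjusted p = 0.13). Acox2, the oxidase for bile acid intermediates, went through 176, 254 and 317 CPM in WT and 126, 170 and 248 CPM in KO. It overlapped too, with a log2 change of −0.50 ± 0.19 (SE; edgeR, adjusted p = 0.14). Ehhadh, the bifunctional enzyme inducible by PPARα ligands, had the most negative estimate of all members, −1.10, with an SE of 0.62 (edgeR's quasi-likelihood test, adjusted p = 0.34). It varied from 298 to 2637 CPM in WT (median 1793 CPM) and from 209 to 1688 CPM in KO (median 623 CPM), so that the genotypes overlapped over most of their range. The estimate was −0.04 in the libraries numbered 573 to 602 and −0.42 with the number range as a covariate.

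The thiolases Acaa1a and Acaa1b, which cleave the shortened acyl chain, differed in behaviour between libraries. Acaa1b was at 666, 1843 and 2534 CPM (lowest, median and highest) in WT and 972, 1203 and 1739 CPM in KO, a log2 change of −0.42 ± 0.26 (SE; edgeR's quasi-likelihood test, adjusted p = 0.39). Acaa1a was at 298, 417 and 490 CPM in WT and 377, 390 and 429 CPM in KO, with a log2 change of −0.07 ± 0.11 (SE). WT 590 was the lowest library for both. Their coding sequences are 96.5% identical over 1275 aligned bases, so reads could be divided between them and single values are uncertain. Of the rest, Decr2, an auxiliary reductase, stood at −0.17, Acox3 at −0.13, the thiolase and lipid transfer gene Scp2 at −0.06 and the reductase gene Pecr at 0.07.

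**Figure D3:**
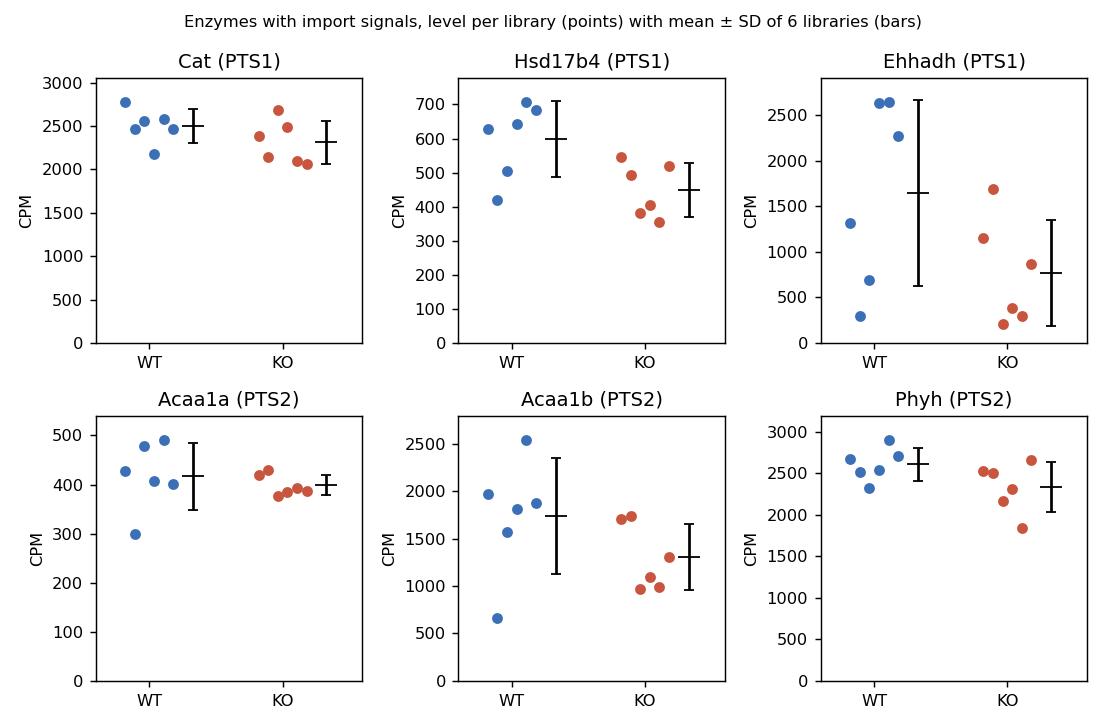
Levels in CPM (vertical axes from 0) of 3 enzymes with the PTS1 pattern and 3 with the PTS2 pattern, with 1 point per library and bars for the mean ± SD of 6 libraries. WT and KO overlap in every panel; Ehhadh spreads from 209 to 2637 CPM and Cat only from 2062 to 2772 CPM.

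Phyh, the first enzyme of phytanic acid α-oxidation and a PTS2 protein, was at 2324, 2606 and 2896 CPM in WT and 1844, 2406 and 2658 CPM in KO. It overlapped between genotypes, with a log2 change of −0.16 ± 0.11 (SE; adjusted p = 0.44, edgeR's quasi-likelihood test). Hacl1, the lyase of the same pathway, was at 0.02 and Amacr, the racemase of branched chains, at 0.04; Gm49387 covers 31.1% of the exonic bases of Hacl1 on the same strand. The ether lipid genes Gnpat (−0.09) and Agps (−0.03) and the fatty alcohol supplier Far1 (0.35 ± 0.19, SE) had 0 calls, 0 unadjusted p-values under 0.05 in edgeR's test and no call by DESeq2. Over all 13706 tested genes 3.82% passed edgeR's test, so the absence of a call among 3 genes says little.

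Catalase (Cat), which degrades hydrogen peroxide, was at 2178, 2510 and 2772 CPM in WT and 2062, 2266 and 2690 CPM in KO. The libraries of both genotypes were interleaved, and the log2 change was −0.11 ± 0.10 (SE; adjusted p = 0.57, edgeR's quasi-likelihood test). The glycolate oxidase gene Hao1 (−0.13), the soluble epoxide hydrolase gene Ephx2 (−0.11), the sarcosine oxidase gene Pipox (−0.28) and the glyoxylate aminotransferase gene Agxt (−0.04 ± 0.40, SE) did not pass either. For Agxt, KO 584 stood out at 971 CPM, with the remaining KO libraries at 197 to 332 CPM. Among acyl and CoA handling genes, the octanoyltransferase gene Crot stood at −0.44 ± 0.19 (SE; adjusted p = 0.19, edgeR's quasi-likelihood test), the CoA diphosphatase gene Nudt7 at 0.51 ± 0.31 (SE), Nudt12 at −0.16, Mlycd at −0.10 and Nudt19 at 0.00. An antisense gene, B230322F03Rik, overlaps 35% of the exonic bases of Nudt19. Crot passed in the fit without KO 584 (−0.61, adjusted p = 0.038). The protease gene Lonp2 stood at −0.05.

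In all, 3 of the 41 members passed the threshold, all lower in KO (7.32%). Over all 13706 tested genes 3.82% passed, 2.09% lower and 1.72% higher in KO; with library totals as the only scaling the calls over all genes split into 139 lower and 266 higher, and the same 3 members were called. Groups did not overlap in 2 members, both with KO below WT, against 3.3% of all tested genes in either direction and 1.97% with KO below WT. Of the 41 members 34 lay below 0, against 6605 of the 13706, and the median log2 change was −0.13 against 0.01. The medians of peroxins (−0.15) and of enzymes and transporters (−0.11) were not tested against each other; single members ranged from −0.87 to 0.21 and from −1.10 to 0.51. The titles number the libraries 573 to 602 and 776 to 780; within the first range (3 WT, 5 KO) the mean log2 CPM of Pex5, Pex7 and Abcd3 differed by −0.82, −0.75 and −0.50, and within the second (3 WT, 1 KO) by −1.01, −0.65 and −0.44.

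**Figure D4:**
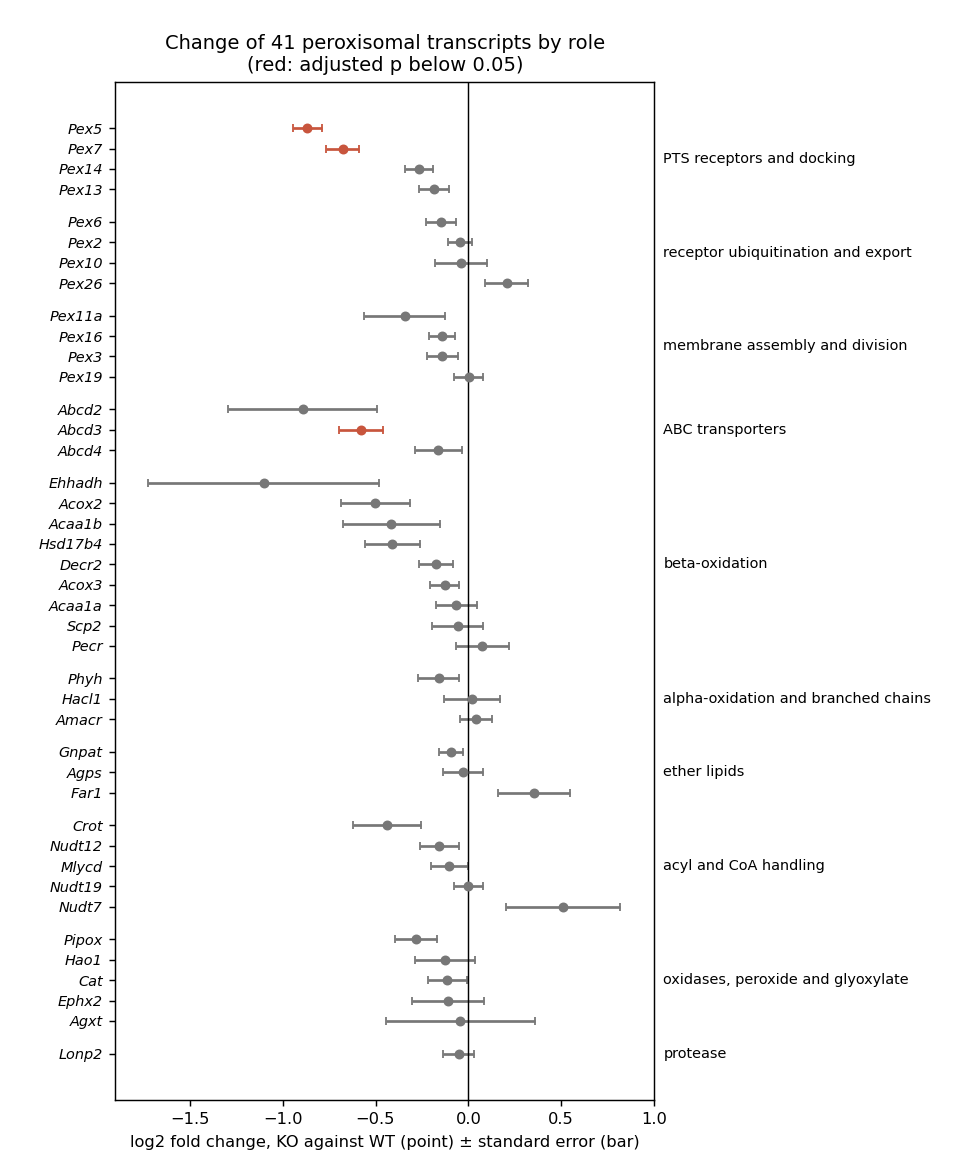
Log2 fold change of KO against WT (horizontal axis) for the 41 members grouped by role, with standard errors as bars; red points passed an adjusted p of 0.05 in edgeR's test. Pex5 (−0.87), Pex7 (−0.68) and Abcd3 (−0.58) passed, while Ehhadh (−1.10) and Abcd2 (−0.89) have wider bars and did not.

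Per unit of transcript length the family spanned a wide range of levels. In TPM (each gene's counts divided by its length, then scaled to a sum of 1000000), Phyh was highest in WT at 2962 ± 334 TPM (SD, n = 6), followed by Cat (2053 ± 187), Ephx2 (2035 ± 583), Acaa1b (1914 ± 704) and Scp2 (1855 ± 373). These last 4 did not differ beyond their spread. The highest peroxin was Pex11a at 138 ± 44.9 TPM, with 12 of the 29 enzymes and transporters below it, then Pex16 (132 ± 11.3) and Pex19 (97.7 ± 8.46), whereas Pex14 was at 14.6 ± 1.69 and Pex10 at 3.86 ± 0.68 TPM. Pex5 stood at 77.1 ± 7.66 TPM in WT and 43.4 ± 6.66 TPM in KO, and Pex7 at 58.1 ± 6.76 and 37.1 ± 3.17 TPM. At the bottom were Agps (2.28 ± 0.45 TPM) and Far1 (0.42 ± 0.13 TPM). Of 40 neighbouring pairs in the WT order, 24 differed by less than the larger SD of the pair.

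Levels of some members moved with the acute phase libraries in both genotypes. The summed level of the 29 enzymes and transporters was 16883, 10802, 12397, 17066, 17715 and 17234 TPM in WT 573, 590, 601, 776, 777 and 778. In KO 574, 584, 588, 591, 602 and 780 it was 15667, 17168, 11471, 12925, 9245 and 14538 TPM. The 5 lowest sums were in the 5 libraries with the highest acute phase mean (8.73 to 11.4 log2 CPM, against 6.58 to 7.31 in the others). TPM are shares of a library. Ehhadh, in CPM, was at 298 and 689 in WT 590 and 601 and at 209, 380 and 291 in KO 588, 591 and 602, all below its level in the other 7 libraries (866 to 2637). Pex5 did not follow this order: it was at 126 and 141 CPM in WT 590 and 601, within or near the other WT libraries, and at 71.5 to 82.7 CPM in KO 588, 591 and 602. Without these 5 libraries, an alternative added after the data were seen, Pex5 was at −0.87 (adjusted p = 0.012), Pex7 at −0.72 (adjusted p = 0.015) and Ehhadh at −0.85 (adjusted p = 0.18, edgeR's quasi-likelihood test). The part of the acute phase response in the enzymes' levels was not tested.

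**Figure D5:**
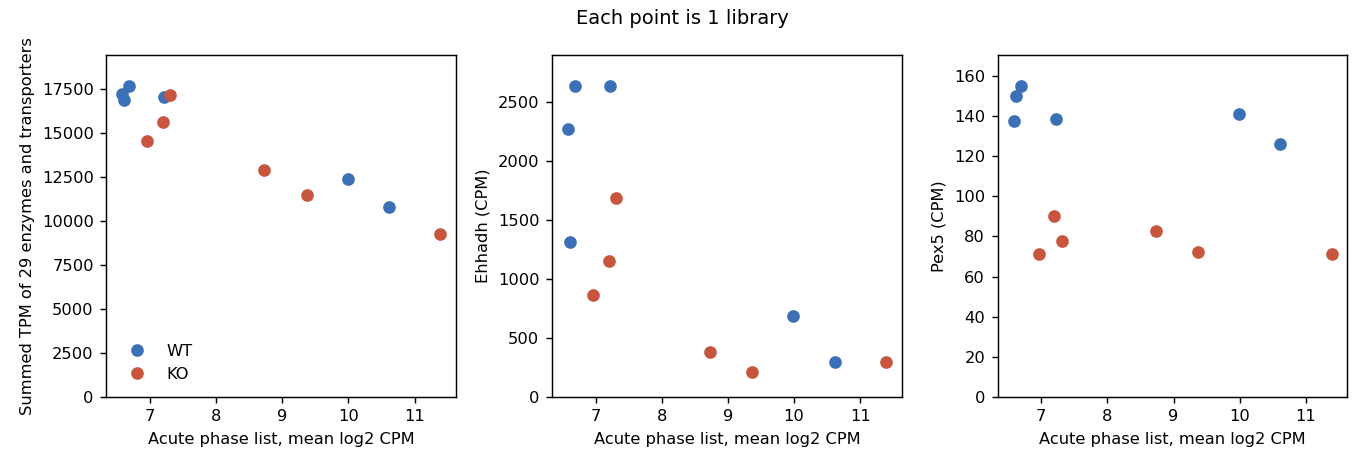
Summed TPM of the 29 enzymes and transporters, Ehhadh in CPM and Pex5 in CPM (vertical axes from 0) against the mean log2 CPM of 15 acute phase genes (horizontal axes), with 1 point per library. The 5 libraries above 8.7 on the horizontal axis have the lowest summed TPM and Ehhadh, while Pex5 separates by genotype on either side.

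Beyond these members, 57 other peroxisomal genes and regulators were listed, of which 52 were tested. Among them 5 fell and 1 rose (11.5%, beside the 3.82% of all genes), and the median log2 change was −0.08. The insulin-degrading enzyme gene Ide (−0.69, adjusted p = 0.012), on chromosome 19 like A1cf, fell in edgeR's test from 109 to 151 CPM in WT to 64.8 to 107 CPM in KO, with no overlap. Also lower were the NADPH-producing dehydrogenase gene Idh1 (−0.58, adjusted p = 0.024), the membrane protein gene Mpv17 (−0.51, adjusted p = 0.018) and Rxra (−0.31, adjusted p = 0.046), which encodes a partner of nuclear receptors; Slc25a17, the cofactor carrier of the peroxisomal membrane, rose (0.39, adjusted p = 0.048, all in edgeR's quasi-likelihood test). Rxra and Slc25a17 passed in only 1 each of the 12 fits with 1 library left out, and Idh1 in 9. Ide and Mpv17 lost their calls in the libraries numbered 573 to 602, without the 5 acute phase libraries and without the 2 deepest. A protein-coding gene, Gm29609, overlaps 14.4% of the exonic bases of Mpv17 on the same strand. Ppara, the receptor that drives many of these genes, was at 0.14 ± 0.10 (SE).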

How the data were processed

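The authors deposited raw fragment counts for each gene name from featureCounts 1.5.0-p2 on exons of the GENCODE M8 annotation with no strand option, per the file headers; the submitters' processing notes also name STAR, DESeq2 and mm10. The deposited table gives an exonic length per gene name, another value used only for TPM. Samples were grouped by title.

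In R 4.3.3, genes were kept by edgeR 4.0.16 filterByExpr (minimum count 10), scaled by TMM and compared by the robust quasi-likelihood test on all 12 libraries, without covariates; the Benjamini-Hochberg adjustment ran over 13706 genes with a threshold of 0.05. The standard error is the log2 change divided by the square root of F. Ratios were compared by exact two-sided permutation, and they were not among the planned comparisons. Log2 CPM used a prior count of 2. Other settings, with limma 3.58.1 and DESeq2 1.42.0 among them, are given below. In simulated libraries of 13562 genes the test recovered 46% of genes changed 1.5-fold and 74% of those changed 2-fold, with 4.32% false calls. Few genes were changed, drawn at random from those tested, and each gene varied independently, so these shares are approximate. A count of 0 allows up to 3 counts, or 0.059 to 0.131 CPM, for counting error only.

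The members and lists were chosen with earlier results of these data known, so their counts are descriptions. Values by library are given for members past the threshold, the 6 with the smallest p, and named receptors, docking genes and enzymes. Values by library of Pex13, Pex19, Abcd2, Agxt and Crot beyond this rule, and the change of Ppara, were chosen after their values were seen. Some genes of the wider peroxisomal list are counted but not reported here by name. Import patterns were read from translated GENCODE M21 transcripts, and a protein table was not used here. All overlaps between exons of different genes were also read from GENCODE M21. The counts were made on GENCODE M8, so the overlaps do not show which reads were ambiguous in them. The labels do not say whether animals were littermates, and p-values measure the spread between these libraries.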

Additional observations from a re-analysis of the deposited data

Results flagged for a closer look

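In 82 groups of 6 libraries (41 members in each genotype), the gap between the most extreme library and its neighbour was a larger share of the whole range than Dixon's 95% limit allows in 4, and chance alone flags about 1 group in 20. Crot was at 1208 CPM in WT 573, above the 836 to 924 CPM of the other WT libraries. Acaa1b was at 666 CPM in WT 590, below the other WT libraries at 1572 to 2534 CPM. Hacl1 was at 140 CPM in WT 601, where the others were at 198 to 235 CPM. Agxt was at 971 CPM in KO 584, and its other KO libraries lay between 197 and 332 CPM.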

How the results depend on the processing

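The calls of Pex5 and Pex7 held in all 22 other settings, and that of Abcd3 in 19. The number of members past the threshold was 2 to 4 in every setting, and 3 to 4 with 1 library left out; DESeq2 added Pex14 as the fourth. No member with a call changed sign. Medians of the 41 members stayed below 0, from −0.17 to −0.10 with 1 library left out and −0.08 with library totals only. Over all genes, 523 passed in the fit reported, 1175 with DESeq2, 57 in the libraries numbered 573 to 602, 240 without the 5 libraries highest in acute phase genes, 206 without the 2 deepest libraries, and 266 to 638 with 1 library left out (lowest without WT 777). Of the other peroxisomal genes 6 passed, against 1 in the libraries numbered 573 to 602, 2 without the 5 acute phase libraries, 2 without the 2 deepest, and 3 to 7 with 1 library left out; the 3 were reached without WT 777, WT 778 or KO 574. The fits on a part of the libraries hold fewer of them, and the causes of the differences were not tested. The 2 settings without 5 and without 2 libraries were chosen after seeing the data. No paired analysis was run because WT and KO share no library number. Adjacent numbers occur (WT 573 and KO 574, WT 590 and KO 591, WT 601 and KO 602), but the labels do not call them pairs, and no fit used them as such. Far1 (mean of 51.6 counts) and Pex10 were the members with the fewest counts, where depth limits the precision most.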
